A study of Mus musculus with 4 samples.

Results

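The subunits of the oxidative phosphorylation (OXPHOS) system were taken as the genes whose symbol begins with Nduf and a subunit letter and number, with Uqcr, with Cox4 to Cox8 or with Atp5, the 4 genes Sdha, Sdhb, Sdhc and Sdhd, and the genes named mt-Nd, mt-Co, mt-Atp or mt-Cytb. These symbols found 98 of the 32285 genes in the files, of which 85 are encoded in the nucleus and 13 in mitochondrial DNA. Single-cell RNA was sequenced from 4 libraries of cultured mouse cells, 1 per condition, all from primary cultures that the study describes as coming from chow-fed C57BL/6J male mice. De-differentiated fat (DFAT) cells make up the libraries iWAT_DFAT and eWAT_DFAT. They were grown from floating adipocytes of inguinal and epididymal white adipose tissue in flasks filled with medium, turned upside down and later turned back. The iWAT_SVF and eWAT_SVF libraries hold adherent cultures of the stromal vascular fraction (SVF) of the same depots, which the study calls adipose stem and progenitor cells. No treatment, transgene or deletion is given for any of the 4 cultures, and neither the age of the mice nor the number pooled is given in the sources used here.

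OXPHOS is the final stage of fuel oxidation. Complexes I to IV of the inner mitochondrial membrane pass electrons from NADH and succinate to oxygen and pump protons, and complex V, the ATP synthase, lets the protons flow back to make ATP. Most subunits are encoded in the nucleus and imported, whereas a small core of complexes I, III, IV and V is made inside the mitochondrion from its own DNA, so that 2 genomes have to supply matching parts. Proliferating fibroblast-like cells are known to draw much of their ATP from glycolysis, and progenitors that mature into adipocytes to build more mitochondria.

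Levels are unique molecular identifier (UMI) counts, each standing for 1 captured RNA molecule, summed over the cells of a library and scaled to 1000000 UMIs (CPM). Cells were the barcodes with 5000 to 75000 UMIs, 200 to 7500 genes and under 10% of UMIs from mitochondrial genes, which left 7629 iWAT_DFAT, 6464 eWAT_DFAT, 7424 iWAT_SVF and 6745 eWAT_SVF cells with 183664704 to 199357348 UMIs per library. The mitochondrial limit acts on the 13 mitochondrially encoded members themselves and removed between 11 and 111 barcodes per library. The header of the iWAT_SVF matrix names an older version of the counting software than the other 3 do. The methods state that introns were counted, which its header neither states nor denies, and the part of any such difference in its levels was not tested. Between 13 and 20 cell barcodes were shared by any pair of libraries, at most 0.297% of a library. The 9 stromal markers summed to 2100 to 6811 CPM per library, against 19.7 to 58.6 for endothelial and 17.7 to 59.6 for immune markers. Mesothelial markers ran from 5.95 CPM in iWAT_DFAT to 120 in eWAT_SVF, where 15.1% of cells held UMIs of 2 or more of them. Adipocyte markers summed to 356 CPM in iWAT_DFAT, 2225 in eWAT_DFAT, 83.4 in iWAT_SVF and 337 in eWAT_SVF, almost all of it Fabp4, and no library held a UMI of Lep, which allows at most 0.0163 CPM. Each condition was a single library, so no replicate spread could be computed and nothing was tested. All 95% intervals below (exact Poisson for levels, exact binomial for shares, conditional binomial for ratios) cover counting error only, so a difference between 2 libraries cannot be told apart from a difference between 2 cultures of the same kind.

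The summed levels of nuclear and of mitochondrially encoded members differed between DFAT and SVF cells in opposite directions, and both directions turned over between the depots. For the mitochondrial members in eWAT this held for the sum only, as 8 of the 13 genes were higher in DFAT cells, with a median log2 ratio of 0.27. That sum also changed sign, to 0.046, without the cells that held UMIs of 2 or more of 10 cell cycle genes. The 85 nuclear genes summed to 19065 CPM in iWAT_DFAT, 21490 in eWAT_DFAT, 21916 in iWAT_SVF and 19646 in eWAT_SVF. The log2 ratio of DFAT over SVF was therefore -0.20 in iWAT (95% interval -0.203 to -0.199) and 0.13 in eWAT (0.127 to 0.131), so that nuclear OXPHOS RNA took a smaller share in DFAT than in SVF cells of the inguinal and a larger one in those of the epididymal cultures. Without the cells that held UMIs of 2 or more of 10 cell cycle genes these ratios were -0.33 and 0.25, and centred on the median gene -0.28 and 0.061. In such sums, fewer cells of a type and less RNA per cell cannot be told apart. Between depots, the ratio of iWAT over eWAT was -0.17 for DFAT and 0.16 for SVF cells, with -0.36 and 0.22 without the cells that held cell cycle genes. Centred on the median gene they were -0.26 and 0.10. These 4 comparisons share libraries, each library entering 2 of them, and are not independent of each other.

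The 13 mitochondrially encoded genes summed to 31827 CPM in iWAT_DFAT, 20301 in eWAT_DFAT, 21323 in iWAT_SVF and 22281 in eWAT_SVF. The iWAT_DFAT library thus stood apart from the others, with 3.18% of all UMIs against 2.03% to 2.23%. The log2 ratio of DFAT over SVF was 0.58 (0.576 to 0.580) in iWAT and -0.13 (-0.136 to -0.132) in eWAT. Mitochondrial transcripts per nuclear OXPHOS transcript numbered 1.67 in iWAT_DFAT, 0.945 in eWAT_DFAT, 0.973 in iWAT_SVF and 1.13 in eWAT_SVF. Without the cells that held UMIs of 2 or more of 10 cell cycle genes the eWAT ratio of the mitochondrial sum turned to 0.046 and the iWAT ratio was 0.56. Without cells with markers of other types (adipocyte, endothelial, immune, mesothelial or neural) the eWAT ratio was -0.22 and the iWAT ratio 0.55. Centred on the median gene they were -0.20 and 0.50.

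Droplets with 1 to 100 UMIs, which hold free RNA and no cell, carried mitochondrial RNA at 46690 CPM in iWAT_DFAT, 27952 in eWAT_DFAT, 22320 in iWAT_SVF and 16790 in eWAT_SVF. The free RNA of iWAT_DFAT was therefore the richest in mitochondrial transcripts too, at 1.47 times the level in its cells. Subtracting a free RNA profile worth 5% of a library's UMIs in cells left the iWAT ratio at 0.55. Nuclear members were at 18853 to 23959 CPM in free RNA, between 0.980 and 1.099 times their level in cells.

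**Figure D1:**
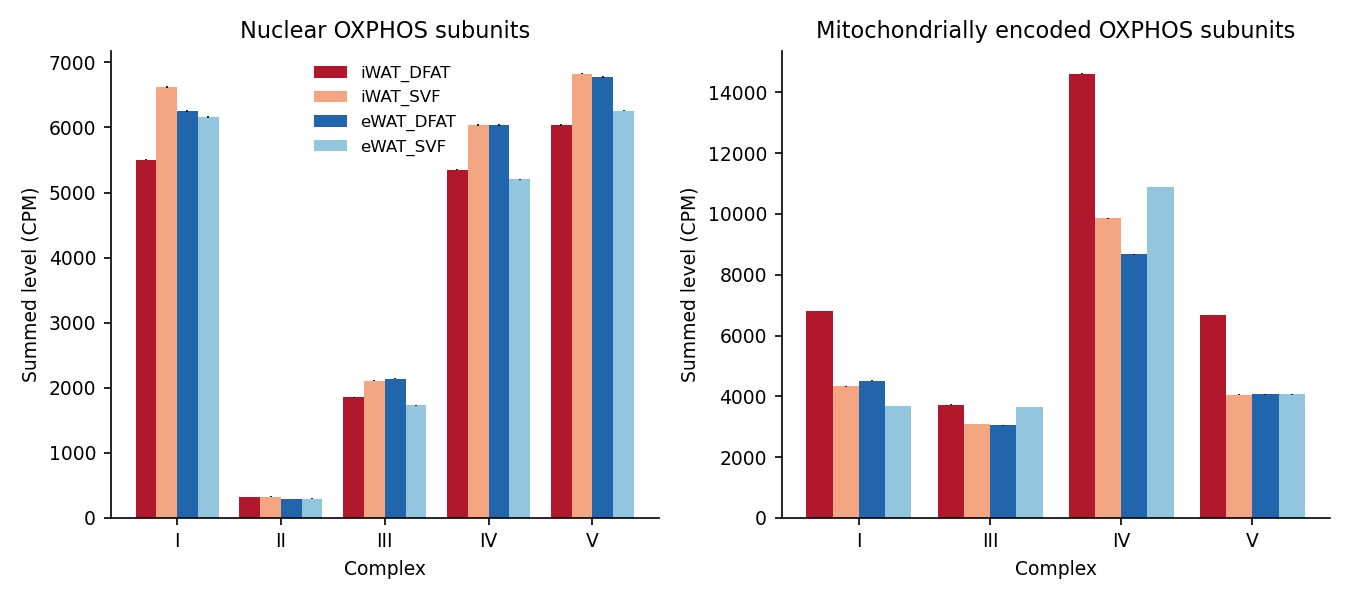
Summed levels in CPM of nuclear (left) and mitochondrially encoded (right) OXPHOS genes by complex, 1 bar per library, with exact 95% Poisson intervals that are mostly narrower than the line. iWAT_DFAT has the lowest nuclear bar in complexes I and V and the highest mitochondrial bar in all 4 complexes that have one, for example 14621 CPM against 8675 to 10886 in complex IV.

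Most nuclear members differed by a small factor, with Cox6a2 and Ndufa4l2 as the exceptions described further on. Of the 85 nuclear genes, 79 had a mean of at least 5 CPM over the 4 libraries and were compared, and the other 6 (Cox4i2, Cox6b2, Cox7a1, Cox7b2, Cox8b and Cox8c) are low isoforms of complex IV described further on. Among the 79, Cox6a2 met this mean only through the SVF libraries, at 11.8 CPM in iWAT_SVF and 7.82 in eWAT_SVF against 0.871 in iWAT_DFAT and 1.23 in eWAT_DFAT. Its place among the compared members therefore rests on the cells in which it was high. Between iWAT_DFAT and iWAT_SVF, 69 of the 79 were lower in DFAT and 10 higher, with a median log2 ratio of -0.19 where the median of all 10033 genes at this level was 0.081. Between eWAT_DFAT and eWAT_SVF, 50 were higher and 29 lower, with a median of 0.095 against 0.069 for all genes. In iWAT over eWAT the split was 17 higher and 62 lower for DFAT (median -0.18 against 0.086) and 57 higher and 22 lower for SVF (0.13 against 0.055). Once the median of all genes had been subtracted, the eWAT split of 50 to 29 became 42 to 37, and the DFAT split between depots became 9 to 70.

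Members that differed by 1.5-fold or more were counted beside all genes, and at this fold their share was smaller than that of all genes in all but 1 of the 8 counts. At a looser log2 limit of 0.322 it was larger in 3. In 1 of these, lower in iWAT_DFAT than eWAT_DFAT, it was nearly the share of all genes (15 of 79 against 18.4%). The others were lower in iWAT_DFAT than iWAT_SVF (21 of 79 against 18.7% of all genes) and higher in iWAT_SVF than eWAT_SVF (24 of 79 against 17.4%). In iWAT_DFAT over iWAT_SVF 1.5-fold was reached by 1 member upward, where 17.2% of all genes reached it, and by 6 downward, against 9.78% of all genes. In eWAT_DFAT over eWAT_SVF it was reached by 2 upward (14.2% of all genes) and 1 downward (12.3%). The 1 downward in eWAT was Cox6a2, also 1 of the 6 in iWAT, which met the filter on level only through the SVF libraries where it was high. With a minimum of 20 CPM, which left it out, the downward counts were 5 in iWAT and 0 in eWAT. In iWAT_DFAT over eWAT_DFAT 1 member was higher by that much (16.5% of all genes) and 2 lower (8.65%). In iWAT_SVF over eWAT_SVF 8 of the 79 were higher, a larger share than the 6.92% of all genes, and 0 were lower (6.80%), all 22 members lower in iWAT lying short of 1.5-fold. This larger share upward did not hold in all settings. It was 7 of 77 at a minimum of 20 CPM (5.26% of all genes), but 4 of 79 after centring on the median gene (5.78%). With no filter on level it was 10 of 84 (20.2%), and at 2-fold 0 of 79 (2.74%). With the median of all genes subtracted, the 2 upward members in eWAT, Cox7b and Cox7a2, were short of the limit.

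Over the 4 libraries the highest level of a nuclear member was a median of 1.32 times its lowest, against 1.52 for all genes. This ratio stayed under 1.5 for 64 members, or 81.0% of them, against 48.3% of all genes. The highest level was in iWAT_SVF for 36 members, in eWAT_DFAT for 22, in eWAT_SVF for 14 and in iWAT_DFAT for 7, and the lowest was in iWAT_DFAT for 39 and in eWAT_SVF for 32. The order of the 79 levels was nearly the same in any 2 libraries, with Spearman correlations across genes of 0.952 to 0.980, in libraries that share gene lengths and capture chemistry. Higher in DFAT than in SVF cells in both depots were 8 members, namely Ndufs1, Sdhd, Uqcrh, Cox8a, Ndufa4, Ndufa4l2, Atp5a1 and Atp5g3. Of these, 6 remained so once the median of all genes had been subtracted, Cox8a and Ndufa4l2 being the exceptions. In eWAT Ndufa4l2 was at 6.70 CPM in DFAT against 6.51 in SVF cells. Without the cells with 2 or more pericyte markers it was at 5.00 against 6.18 CPM and so lower in DFAT cells. A further 27 were lower in both depots, 42 were lower in iWAT and higher in eWAT, and 2 did the reverse. Of all 10033 genes, 5728 were higher in DFAT cells in iWAT and 5636 in eWAT. How all genes divided over both depots together was not counted, so the member counts have no such share beside them.

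**Figure D2:**
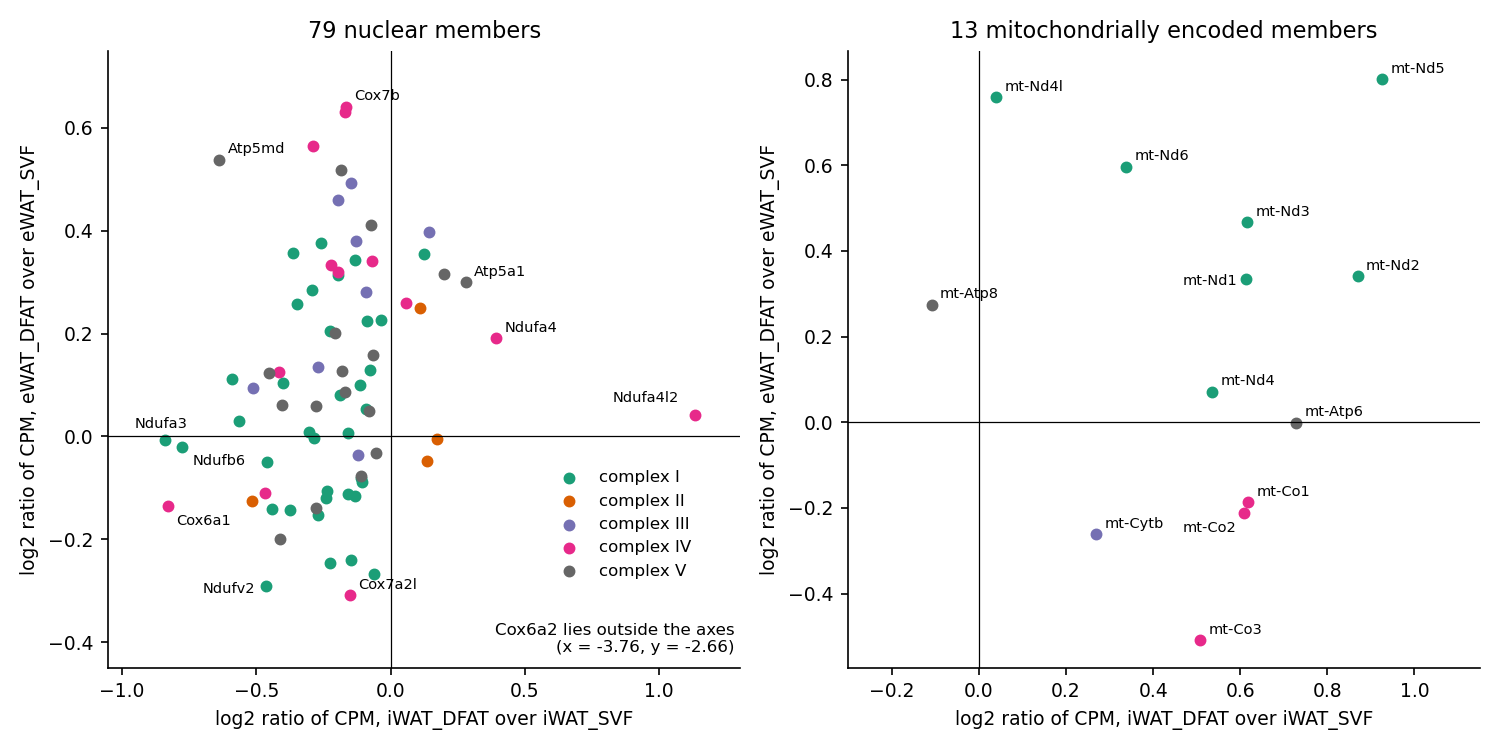
Log2 ratio of DFAT over SVF in iWAT (x axis) against that in eWAT (y axis) for each OXPHOS gene, 1 point per gene, coloured by complex. Most nuclear points (left) lie to the left of 0 and on both sides of 0 vertically, whereas 12 of 13 mitochondrially encoded points (right) lie to the right of 0 and the complex I genes among them lie above 0 in both depots.

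Complex I oxidises NADH and has the most subunits. Its 36 nuclear genes summed to 5504 CPM in iWAT_DFAT, 6250 in eWAT_DFAT, 6622 in iWAT_SVF and 6161 in eWAT_SVF, with log2 ratios of DFAT over SVF of -0.27 in iWAT and 0.02 in eWAT. In iWAT, 35 of the 36 were lower in DFAT cells, the exception being Ndufs1, which carries iron-sulfur clusters of the electron path, at 40.9, 43.7, 37.5 and 34.2 CPM. Wherever 4 levels follow each other without names, they stand for iWAT_DFAT, eWAT_DFAT, iWAT_SVF and eWAT_SVF, and a pair of ratios for DFAT over SVF in iWAT and then in eWAT. In eWAT the complex divided into 19 higher and 17 lower.

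Among the accessory subunits, Ndufa3 was at 112 CPM in iWAT_DFAT, 128 in eWAT_DFAT, 200.5 in iWAT_SVF and 129 in eWAT_SVF. The iWAT_SVF level thus stood above the others, which lay close together, and the ratios were -0.84 (-0.86 to -0.82) in iWAT and -0.01 (-0.03 to 0.02) in eWAT. Ndufb6 had another pattern, at 96.1, 156, 165 and 158 CPM, with iWAT_DFAT alone lower (ratio -0.78 in iWAT and -0.02 in eWAT). The gene named Ndufb1-ps followed Ndufa3, at 171, 175.5, 258 and 162.5 CPM with -0.59 in iWAT and 0.11 in eWAT. Its symbol ends in -ps, but its RefSeq promoter is listed under the name Ndufb1, and its gene type was not looked up. Ndufa1, an X-linked subunit, was at 119, 109, 145.5 and 89.7 CPM and was among the members most different between the SVF libraries (0.70).

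Among the subunits that carry the catalytic path, Ndufv1, which binds NADH, was nearly level at 64.3, 70.0, 71.8 and 69.7 CPM, and Ndufv2, its iron-sulfur partner, at 107, 136.5, 147 and 167 CPM. The last was lower in DFAT cells in both depots, with -0.47 in iWAT and -0.29 in eWAT, and Ndufs8, another iron-sulfur subunit, was also among the 5 lowest ratios in eWAT, at -0.25. Ndufb8 and Ndufb9 were lower in iWAT than in eWAT for both kinds of cell, with ratios of -0.46 and -0.35 for DFAT and -0.31 and -0.22 for SVF cells. Ndufv3, an accessory subunit beside the NADH site, went the other way between depots, at 114, 93.6, 128 and 101 CPM.

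Complex II, which links the citrate cycle to electron transport, is wholly nuclear and was the least abundant, at 315 CPM in iWAT_DFAT, 293 in eWAT_DFAT, 327 in iWAT_SVF and 295 in eWAT_SVF. Its subunits did not move as a block. Sdhb, the iron-sulfur subunit, was at 79.0, 94.6, 113 and 103 CPM, lowest in iWAT_DFAT with a ratio of -0.52 (-0.55 to -0.49) in iWAT and -0.13 in eWAT. Sdha, the flavin-carrying catalytic subunit, went the other way in iWAT, at 87.0, 70.5, 77.1 and 70.8 CPM (0.17 and -0.01). The membrane anchors Sdhc and Sdhd were at 83.9, 70.5, 76.3 and 72.9 CPM and at 65.4, 57.5, 60.5 and 48.4 CPM, and both were highest in iWAT_DFAT.

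Complex III passes electrons from ubiquinol to cytochrome c. Its 8 nuclear genes summed to 1855 CPM in iWAT_DFAT, 2135 in eWAT_DFAT, 2105 in iWAT_SVF and 1732 in eWAT_SVF, with ratios of -0.18 in iWAT and 0.30 in eWAT. Direction was again split by depot, with 7 of 8 lower in DFAT cells in iWAT and 7 of 8 higher in eWAT. The Rieske iron-sulfur protein Uqcrfs1 was at 93.7, 123.5, 99.9 and 102 CPM, highest in eWAT_DFAT. The core protein Uqcrc1 was at 85.8, 96.9, 104 and 88.2 CPM. The small subunits Uqcr10 and Uqcrq had the most different ratios of the complex, with 0.49 for Uqcr10 in eWAT (280 against 199 CPM) and -0.51 for Uqcrq in iWAT (400.5 against 572 CPM).

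Complex IV, cytochrome c oxidase, reduces oxygen to water and is the complex whose nuclear subunits come in tissue isoforms. Its 20 nuclear genes summed to 5351 CPM in iWAT_DFAT, 6039 in eWAT_DFAT, 6037 in iWAT_SVF and 5200 in eWAT_SVF (-0.17 in iWAT and 0.22 in eWAT). The common isoform of subunit IV, Cox4i1, was at 706, 847, 975 and 914 CPM and was lower in DFAT cells in both depots (-0.47 and -0.11). Cox5a, a matrix-side subunit, was at 365, 558, 488 and 511 CPM, with iWAT_DFAT below the others and a ratio between the DFAT libraries of -0.61 (-0.62 to -0.60). Cox7b and Cox7a2, which are small membrane subunits, were lowest in eWAT_SVF, at 267.5, 322, 300 and 207 CPM and at 345.5, 444.5, 389 and 287 CPM. They were the 2 members past 1.5-fold upward in eWAT (0.64 and 0.63), with -0.16 and -0.17 in iWAT. Cox7c was likewise lowest in eWAT_SVF, at 393 CPM against 528 to 646 in the other libraries.

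Some subunits of complex IV were higher in DFAT cells. Cox8a, a membrane subunit, was at 724, 714, 696.5 and 596.5 CPM (0.06 and 0.26), the first of which changed sign once the median of all genes had been subtracted. Ndufa4, first described as a complex I subunit and now placed in complex IV, was at 712, 691, 543 and 605 CPM, with both DFAT libraries above both SVF libraries and ratios of 0.39 (0.38 to 0.40) in iWAT and 0.19 (0.18 to 0.20) in eWAT. Cox7a2l, known as a factor that can join complexes III and IV into supercomplexes, had the opposite order at 256, 265, 285 and 328 CPM, with -0.15 in iWAT and -0.31 in eWAT. Whether its product does so in cells of this strain was not examined.

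The isoforms at low level held the widest differences of all members. Cox6a2, the heart and skeletal muscle isoform of subunit VIa (GRCm38, chromosome 7, 128205435 to 128206387, minus strand), was at 0.871 CPM in iWAT_DFAT, 1.23 in eWAT_DFAT, 11.8 in iWAT_SVF and 7.82 in eWAT_SVF. Both SVF libraries were far above both DFAT libraries, and the ratio of DFAT over SVF was -3.76 (-3.998 to -3.53) in iWAT and -2.66 (-2.87 to -2.46) in eWAT, on 160, 229, 2350 and 1544 UMIs. Its ubiquitous partner Cox6a1 was at 161, 204, 285 and 224 CPM with ratios of -0.83 in iWAT and -0.13 in eWAT, so that Cox6a2 made up 0.539% of the subunit's UMIs in iWAT_DFAT, 0.600% in eWAT_DFAT, 3.97% in iWAT_SVF and 3.37% in eWAT_SVF. The free RNA of the 4 libraries held Cox6a2 at 0.552, 0.810, 11.5 and 7.04 CPM. In iWAT_SVF and eWAT_SVF this was close to the level in cells, at 0.974 and 0.901 times it. In iWAT_DFAT and eWAT_DFAT it was 0.634 and 0.656 times that level, on only 4 and 6 UMIs. A small number of its UMIs lay in cells with muscle transcripts. In 23 iWAT_SVF cells with UMIs of 2 or more of Myl1, Mylpf, Tnnc2, Tnni1 and Tnnt3, genes of the contractile apparatus chosen after their values were seen, Cox6a2 was at 102 CPM, against 11.5 CPM in the other cells of that library, but these cells held 67 of its 2350 UMIs. In eWAT_SVF 18 such cells held 8 of 1544 UMIs, at 11.9 against 7.80 CPM.

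Ndufa4l2, a paralogue of Ndufa4 that is induced at low oxygen and known to dampen mitochondrial oxygen use (chromosome 10, 127514967 to 127517154, plus strand), was at 18.3 CPM in iWAT_DFAT, 6.70 in eWAT_DFAT, 8.36 in iWAT_SVF and 6.51 in eWAT_SVF. The iWAT_DFAT library alone was high, and the ratio was 1.13 (1.05 to 1.22) in iWAT and 0.04 (-0.07 to 0.16) in eWAT. In 166 eWAT_DFAT cells with UMIs of 2 or more pericyte markers, Ndufa4l2 was at 84.8 CPM against 5.00 in the other 6298 cells, and Cox4i2, the isoform of subunit IV tied to low oxygen, at 33.5 against 5.26 CPM. Leaving out the cells with pericyte markers gave 18.2, 5.00, 8.001 and 6.18 CPM. In cells with at most 1 of the 10 cell cycle genes Ndufa4l2 was higher than over all cells in every library, at 41.0, 16.9, 13.7 and 9.89 CPM.

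Other low isoforms were rare but uneven. Cox4i2 was at 5.09, 5.86, 2.97 and 4.33 CPM, or 0.716%, 0.687%, 0.304% and 0.472% of the UMIs of subunit IV. Cox6b2, the testis isoform of subunit VIb, was at 4.11, 2.32, 6.99 and 5.76 CPM. In eWAT_SVF it was at 13.6 CPM in 1021 cells with UMIs of 2 or more mesothelial markers and at 4.22 in the other 5724, close to the level in iWAT_DFAT. Cox7a1, the isoform of subunit VIIa found in heart, muscle and brown fat, was at 3.89, 2.28, 2.45 and 1.63 CPM. Cox8b, found in the same tissues, had 1 UMI in iWAT_DFAT, 40 in eWAT_DFAT, 45 in iWAT_SVF and 1 in eWAT_SVF. Few cells held any of these UMIs, with 3 in iWAT_SVF and 21 in eWAT_DFAT. Of the 45 in iWAT_SVF, 44 were among the 23 cells with muscle transcripts. Of the 40 in eWAT_DFAT, 37 were among 212 cells with UMIs of 4 or more adipocyte markers, described further on. Cox7b2 and Cox8c had at most 9 UMIs in any library.

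**Figure D3:**
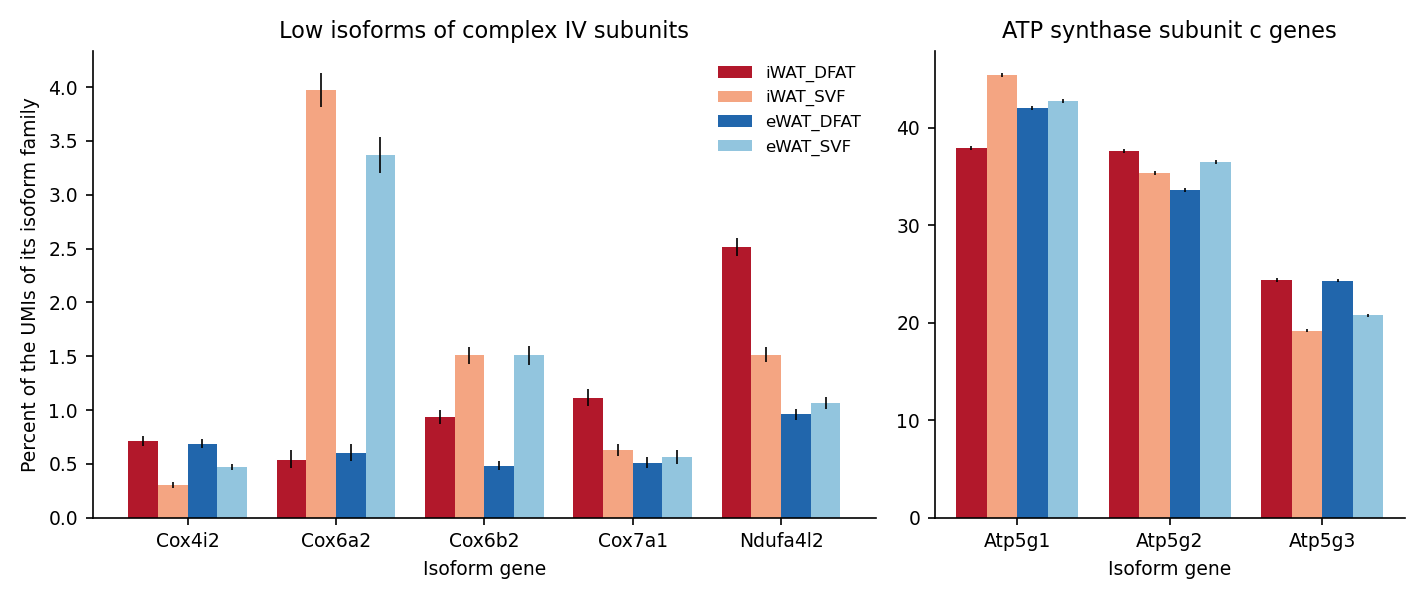
Share of an isoform gene in the UMIs of its family in percent, for low isoforms of complex IV (left) and the 3 genes of ATP synthase subunit c (right), 1 bar per library with exact 95% binomial intervals. The Cox6a2 bars of both SVF libraries, 3.97% and 3.37%, stand above both DFAT bars, and iWAT_DFAT has the highest Ndufa4l2 bar at 2.51%.

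Complex V makes ATP. Its 17 nuclear genes summed to 6040 CPM in iWAT_DFAT, 6773 in eWAT_DFAT, 6825 in iWAT_SVF and 6257 in eWAT_SVF, with ratios of -0.18 in iWAT and 0.11 in eWAT. The 2 kinds of subunit that form the catalytic head did not move together in iWAT. Atp5a1 (subunit alpha) was at 402, 377, 331 and 306 CPM, higher in both DFAT libraries with ratios of 0.28 and 0.30. Atp5b (subunit beta) was at 539, 638, 653 and 612 CPM, with -0.28 and 0.06. The delta subunit of the central stalk, Atp5d, was at 355, 461, 431 and 508 CPM, lower in DFAT cells in both depots (-0.28 and -0.14) and lower in iWAT than in eWAT. Atp5md, a small membrane subunit (chromosome 19, 47083464 to 47090647, minus strand), was at 213 CPM in iWAT_DFAT, 290 in eWAT_DFAT, 331 in iWAT_SVF and 199.6 in eWAT_SVF, with -0.64 (-0.66 to -0.62) in iWAT and 0.54 (0.52 to 0.56) in eWAT, so that DFAT cells were lower in one depot and higher in the other. Between the SVF libraries Atp5md had a ratio of 0.73, the highest of the 79 members at 5 CPM or more in that comparison, followed within the complex by 0.62 for Atp5mpl and 0.59 for Atp5k, which between the DFAT libraries had -0.08 and 0.01.

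Subunit c, whose ring turns as protons pass, is made from 3 genes that encode the same mature protein behind different import sequences. Atp5g1 was at 454, 559, 601 and 535 CPM, Atp5g2 at 450.5, 447, 468 and 457 CPM and Atp5g3 at 292, 324, 254 and 260 CPM. The genes thus had 3 different orders. Atp5g1 was lowest in iWAT_DFAT (-0.40 in iWAT and 0.06 in eWAT), Atp5g2 was nearly level (-0.05 and -0.03), and Atp5g3 was higher in DFAT cells in both depots (0.20 and 0.32). The share of Atp5g3 in the subunit's UMIs was 24.4% in iWAT_DFAT and 24.3% in eWAT_DFAT, against 19.2% in iWAT_SVF and 20.8% in eWAT_SVF. Since the 3 coding sequences are alike and have processed copies in the genome, reads that fit more than 1 place may be lost unevenly.

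The promoters of these genes, whose transcripts differ while their product does not, and that of Atp5md are given as in RefSeq on GRCm38, all on the minus strand and written 5′ to 3′ towards the start site. Bases of annotated exons were left out except for a second stretch of Atp5g2, where the 30 bases around a match lie in an exon of a longer transcript. Capitals mark a match to one of the 5 motifs searched on both strands, which were the NRF1 motif, CCGGAAG (ETS family), AAGATGGCG (YY1), TCAAGGTCA (oestrogen-related receptors, ERR) and GGGCGGG (SP family). The stretches are chr11:96075671-96075881 for Atp5g1, chr15:102671128-102671297 and chr15:102671070-102671099 for Atp5g2, chr2:73911327-73911576 for Atp5g3 and chr19:47090648-47090767 for Atp5md.
Atp5g1: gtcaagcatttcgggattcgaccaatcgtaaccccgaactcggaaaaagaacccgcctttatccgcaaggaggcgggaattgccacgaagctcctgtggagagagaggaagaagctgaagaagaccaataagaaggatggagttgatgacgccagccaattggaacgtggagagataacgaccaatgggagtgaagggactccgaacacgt
Atp5g2 outside exons: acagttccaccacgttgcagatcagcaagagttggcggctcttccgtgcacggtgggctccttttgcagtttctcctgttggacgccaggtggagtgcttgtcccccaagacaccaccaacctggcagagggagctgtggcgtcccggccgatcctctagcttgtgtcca
Atp5g2 exon match: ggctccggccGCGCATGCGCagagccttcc
Atp5g3: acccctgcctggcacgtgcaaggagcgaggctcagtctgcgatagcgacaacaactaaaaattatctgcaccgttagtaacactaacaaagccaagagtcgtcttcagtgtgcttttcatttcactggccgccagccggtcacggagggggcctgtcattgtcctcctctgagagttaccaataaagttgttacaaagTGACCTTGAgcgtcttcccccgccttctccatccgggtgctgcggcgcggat
Atp5md: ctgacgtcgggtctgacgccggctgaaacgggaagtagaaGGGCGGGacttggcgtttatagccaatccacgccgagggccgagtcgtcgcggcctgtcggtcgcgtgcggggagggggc
The 211 bases of Atp5g1 and the 170 bases of Atp5g2 outside exons hold no match. The NRF1 match of Atp5g2 lies 42 to 33 bases before the RefSeq start. Atp5g3 holds an ERR match on the reverse strand, 52 to 44 bases before the start, and Atp5md an SP match 80 to 74 bases before it. In bases of the 300-base windows that are not printed, Atp5g3 also held the NRF1 motif, Atp5g2 the SP letters and Atp5md the ETS letters. The further 100 bases upstream of the Atp5md stretch are an exon of the neighbouring gene Pdcd11 on the other strand.

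Over all nuclear members, 69 of 85 matched a RefSeq promoter (74 windows of 250 bases before to 50 after the start). The NRF1 motif was in 24.3% of these windows and in 4.60% of all 32851 promoter windows, the ETS letters in 23.0% and 8.86%, YY1 in 9.46% and 1.403%, ERR in 2.70% and 0.423% and SP in 33.8% and 25.6%. NRF1 and ETS factors are known as activators of nuclear OXPHOS genes. Members with an NRF1 match had a median log2 ratio of DFAT over SVF of -0.21 in iWAT and 0.080 in eWAT, beside -0.18 and 0.10 for those without. The 2 members with an ERR match, Atp5g3 and Sdhd, are both among the 8 that were higher in DFAT cells in both depots, which was seen only after their values were known.

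The 13 mitochondrially encoded genes are cut from long transcripts of the 2 strands of mitochondrial DNA, so they start from shared RNA and end at different levels. In iWAT, 12 of them were higher in DFAT than in SVF cells and 7 by 1.5-fold or more, as 17.2% of all genes were. In eWAT, 8 were higher and 5 lower, with 3 past that fold upward and 0 downward, against 14.2% and 12.3% of all genes. Between the DFAT libraries all 13 were higher in iWAT, 8 of them by 1.5-fold or more (16.5% of all genes). Between the SVF libraries 7 were higher and 6 lower in iWAT, with 4 past the fold upward (6.92% of all genes).

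All 7 complex I genes were higher in DFAT cells in both depots before centring. In iWAT the lowest of their ratios, that of mt-Nd4l, was 0.04, under the median of 0.081 for all genes. With that median subtracted, 11 of the 13 mitochondrially encoded genes were higher in iWAT and 2 lower. Together the 7 complex I genes were at 6807 CPM in iWAT_DFAT, 4518 in eWAT_DFAT, 4323 in iWAT_SVF and 3686 in eWAT_SVF, with ratios of 0.66 in iWAT and 0.29 in eWAT. The highest ratio in both depots was that of mt-Nd5, at 295, 208, 155 and 119 CPM (0.93 and 0.80). Of the other subunits of the proton-pumping arm, mt-Nd2 was at 1771, 1155, 969 and 911 CPM and mt-Nd1 at 2433, 1580, 1591 and 1253 CPM. For both genes each DFAT library was above the SVF library of its depot. The eWAT difference was least for mt-Nd4, at 1656, 1216, 1143 and 1157 CPM. The only protein gene of the light strand, mt-Nd6, was at 20.8, 14.1, 16.4 and 9.31 CPM.

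Complex III and IV genes changed sign with the depot instead. Cytochrome b, mt-Cytb, was at 3722, 3044, 3087 and 3648 CPM, with 0.27 in iWAT and -0.26 in eWAT. The catalytic subunits of complex IV were at 3305, 2022, 2153 and 2303 CPM for mt-Co1, at 5195, 3333, 3405 and 3863 for mt-Co2 and at 6121, 3319, 4303 and 4720 for mt-Co3. All of these were highest in iWAT_DFAT and lowest in eWAT_DFAT, and mt-Co3 had 0.51 in iWAT and -0.51 in eWAT.

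In complex V, mt-Atp6 stood apart in iWAT_DFAT alone, at 6634 CPM against 4037, 4005 and 4040, with ratios of 0.73 in iWAT and 0.00 in eWAT. Its neighbour on the same transcript, mt-Atp8, was counted at only 43.7, 26.3, 47.2 and 21.7 CPM and went with depot, higher in both iWAT libraries (0.73 for DFAT and 1.12 for SVF). Similarly mt-Nd4l, which shares a transcript with mt-Nd4, was at 113, 106, 110 and 62.7 CPM, lower in eWAT_SVF alone. Because mt-Atp8 and mt-Atp6, and mt-Nd4l and mt-Nd4, overlap and are read from the 3′ end of a shared RNA, their counts cannot be fully told apart.

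**Figure D4:**
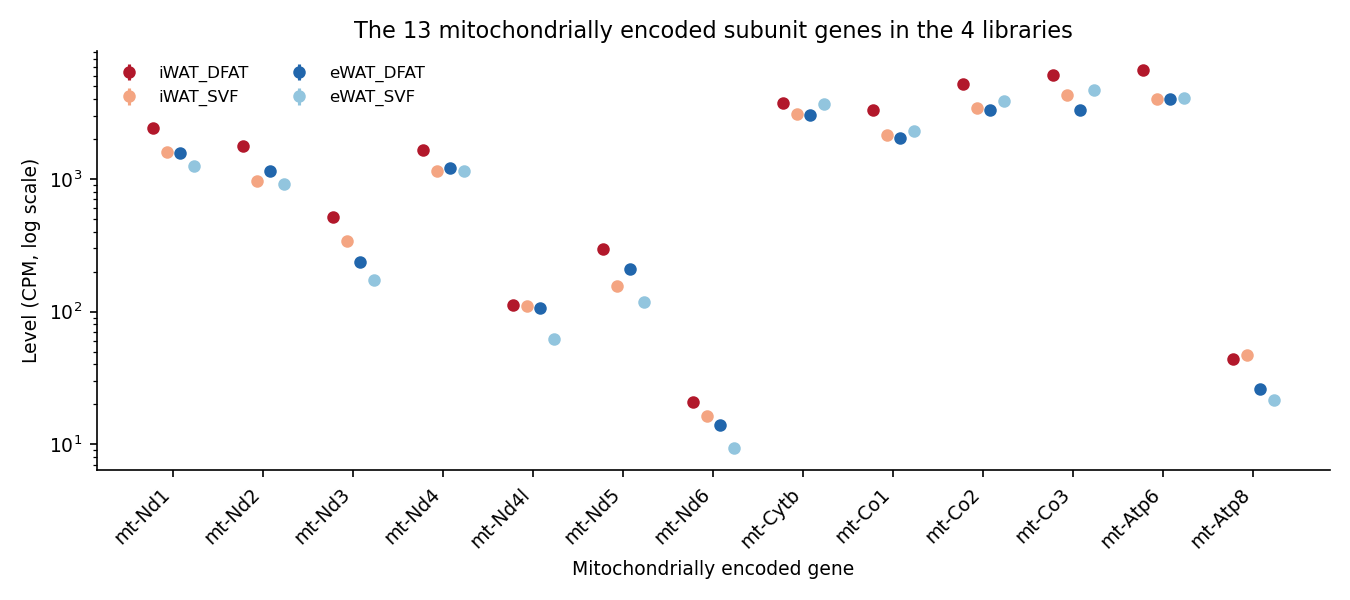
Level in CPM (log axis) of each mitochondrially encoded subunit gene in the 4 libraries, 1 point per library with exact 95% Poisson intervals. iWAT_DFAT is the highest point for 12 of 13 genes, and the complex I genes order the libraries differently from mt-Co1, mt-Co2, mt-Co3 and mt-Cytb, for which eWAT_DFAT is the lowest.

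Set beside the nuclear members of the same complex, mitochondrial RNA was not in fixed proportion. Complex IV held 2.73 mitochondrial per nuclear UMI in iWAT_DFAT, 1.44 in eWAT_DFAT, 1.63 in iWAT_SVF and 2.09 in eWAT_SVF. For complex I the 4 ratios were 1.24, 0.723, 0.653 and 0.598, and for complex V 1.11, 0.600, 0.594 and 0.649. In these iWAT_DFAT had the highest ratio each time. In complex III eWAT_SVF was higher, at 2.11 against 2.01, 1.43 and 1.47.

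Single cells varied in OXPHOS content more than counting alone would give. The nuclear share of a cell's non-mitochondrial UMIs had a median of 1.97% in iWAT_DFAT, 2.15% in eWAT_DFAT, 2.24% in iWAT_SVF and 2.01% in eWAT_SVF. Its SD over cells was 0.410, 0.610, 0.450 and 0.410 percentage points, against 0.0959 to 0.105 from counting. The mitochondrial share had medians of 3.12%, 1.95%, 2.18% and 2.25% and SDs of 1.03, 0.983, 0.767 and 1.02, with 5% to 95% of iWAT_DFAT cells between 1.76% and 4.89%. The nuclear share was lower in deeper cells, going from 2.42%, 2.75%, 2.97% and 2.52% at 5000 to 10000 UMIs to 1.91%, 2.13%, 2.18% and 1.99% at 40000 or more. Across cells the 2 shares had Spearman correlations of -0.075 and -0.024 in the DFAT and -0.25 and -0.25 in the SVF libraries, over cells that share their library and differ in depth.

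UMIs of 2 or more of the 10 cell cycle genes were found in 68.0%, 78.7%, 74.6% and 62.0% of cells. This is a share of cells with UMIs and not of cycling cells, because free RNA was not subtracted and detection depends on depth. The cells that held them were deeper than the others, with medians of 25057 against 17953 UMIs in iWAT_DFAT. Their nuclear share was 1.99% against 1.91% in iWAT_DFAT but 2.15% against 2.44% in eWAT_DFAT, 2.20% against 2.38% in iWAT_SVF and 1.99% against 2.04% in eWAT_SVF. The part of depth in this was not tested.

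Within both DFAT libraries, OXPHOS levels were higher in the cells with UMIs of 4 or more adipocyte markers. Cells were grouped by how many of 8 adipocyte markers (Adipoq, Plin1, Lep, Cidec, Car3, Fabp4, Retn and Lipe) had a UMI, a grouping chosen after the spread of single cells had been seen. Free RNA can give such UMIs, above all of Fabp4, which was at 2132 CPM over all eWAT_DFAT cells, and it was not subtracted here. In eWAT_DFAT the summed nuclear level was 20511 CPM in 242 cells with no marker, 20858 in 4766 with 1, 21437 in 1033 with 2, 23929 in 211 with 3 and 35054 in 212 with 4 or more. The mitochondrially encoded sum went from 19281 CPM with no marker to 24596 with 3 and 38034 with 4 or more. In iWAT_DFAT the nuclear level was flat from 18950 CPM with no marker to 19215 with 3 and reached 25451 in 60 cells with 4 or more, while the mitochondrial level was 30607, 31513, 33273, 38761 and 49896 CPM. Only 2 iWAT_SVF and 3 eWAT_SVF cells had 4 or more markers, with nuclear levels of 64003 and 31072 CPM. Cells with UMIs of fewer than 2 stromal markers, shallow cells at median depths of 6541 to 8815 UMIs, also had high nuclear levels, at 34356 CPM in 19 iWAT_DFAT, 33636 in 278 eWAT_DFAT, 34597 in 71 iWAT_SVF and 27403 in 119 eWAT_SVF cells. Within cells of 10000 to 40000 UMIs the eWAT_DFAT levels with 4 or more markers were 37912 CPM nuclear and 42756 mitochondrial, against 20924 and 19596 with 1.

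Nearly all members took part. Between the 212 eWAT_DFAT cells with 4 or more markers and the 5008 with at most 1, 78 of 79 nuclear members were higher, 56 of them by 1.5-fold or more, where 15.4% of all genes were higher and 18.2% lower by that much. The median log2 ratio was 0.72 for nuclear members, against -0.058 for all genes, and all 13 mitochondrial members were higher by 1.5-fold or more. In the 60 iWAT_DFAT cells with 4 or more markers, 76 of 79 nuclear members were higher than in the 6406 with at most 1, but only 15 by 1.5-fold or more (12.1% of all genes were higher and 19.3% lower), with a median of 0.40. Cells of 1 library are not replicates, so these are descriptions of the 2 cultures.

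By complex, the nuclear sums of eWAT_DFAT cells with 4 or more markers were 1.63 times those with at most 1 in complex I, 1.71 in II, 1.89 in III, 1.85 in IV and 1.51 in V. Ndufa6, an accessory subunit of complex I, had the highest ratio among the 79 members at 5 CPM or more, at 278 against 108 CPM (1.36, interval 1.29 to 1.44). It was followed by Uqcr11, at 648 against 270 CPM (1.26), and Cox8a, at 1529 against 671 CPM (1.19). Subunit c was uneven here too, with Atp5g2 level at 456 against 449.9 CPM, Atp5g1 at 662 against 556 CPM (0.25) and Atp5g3 at 585 against 312 CPM (0.91). Among the low isoforms, Cox7a1 was at 24.1 CPM against 1.44 (4.07, interval 3.74 to 4.39) and Cox6b2 at 11.9 against 1.85 CPM (2.69, interval 2.27 to 3.08). For Cox8b there were 37 UMIs, or 6.66 CPM, in a library where 21 cells held any. The muscle isoform Cox6a2 was at 1.08 against 1.22 CPM. Beside the 15.4% of all genes that were higher by 1.5-fold or more, 12 of 16 citrate cycle genes, 0 of 21 protein import genes and 6 of 78 mitochondrial ribosomal protein genes were. All 10 cell cycle genes were lower by that much, as 18.2% of all genes were.

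Counted from the OXPHOS side, 210 eWAT_DFAT cells had a nuclear share of 3.5% or more, against 38 iWAT_DFAT, 130 iWAT_SVF and 36 eWAT_SVF cells. Of the 210, 51.4% held 4 or more adipocyte markers, and 23.7% of the 38 in iWAT_DFAT, 1.54% of the 130 in iWAT_SVF and 2.78% of the 36 in eWAT_SVF did. The limit is a cut through a continuous score, with 55 eWAT_DFAT cells within 0.1 percentage points of it on either side, and the cells above it were shallow, at a median of 11985 UMIs in eWAT_DFAT and 7070.0 in iWAT_SVF.

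**Figure D5:**
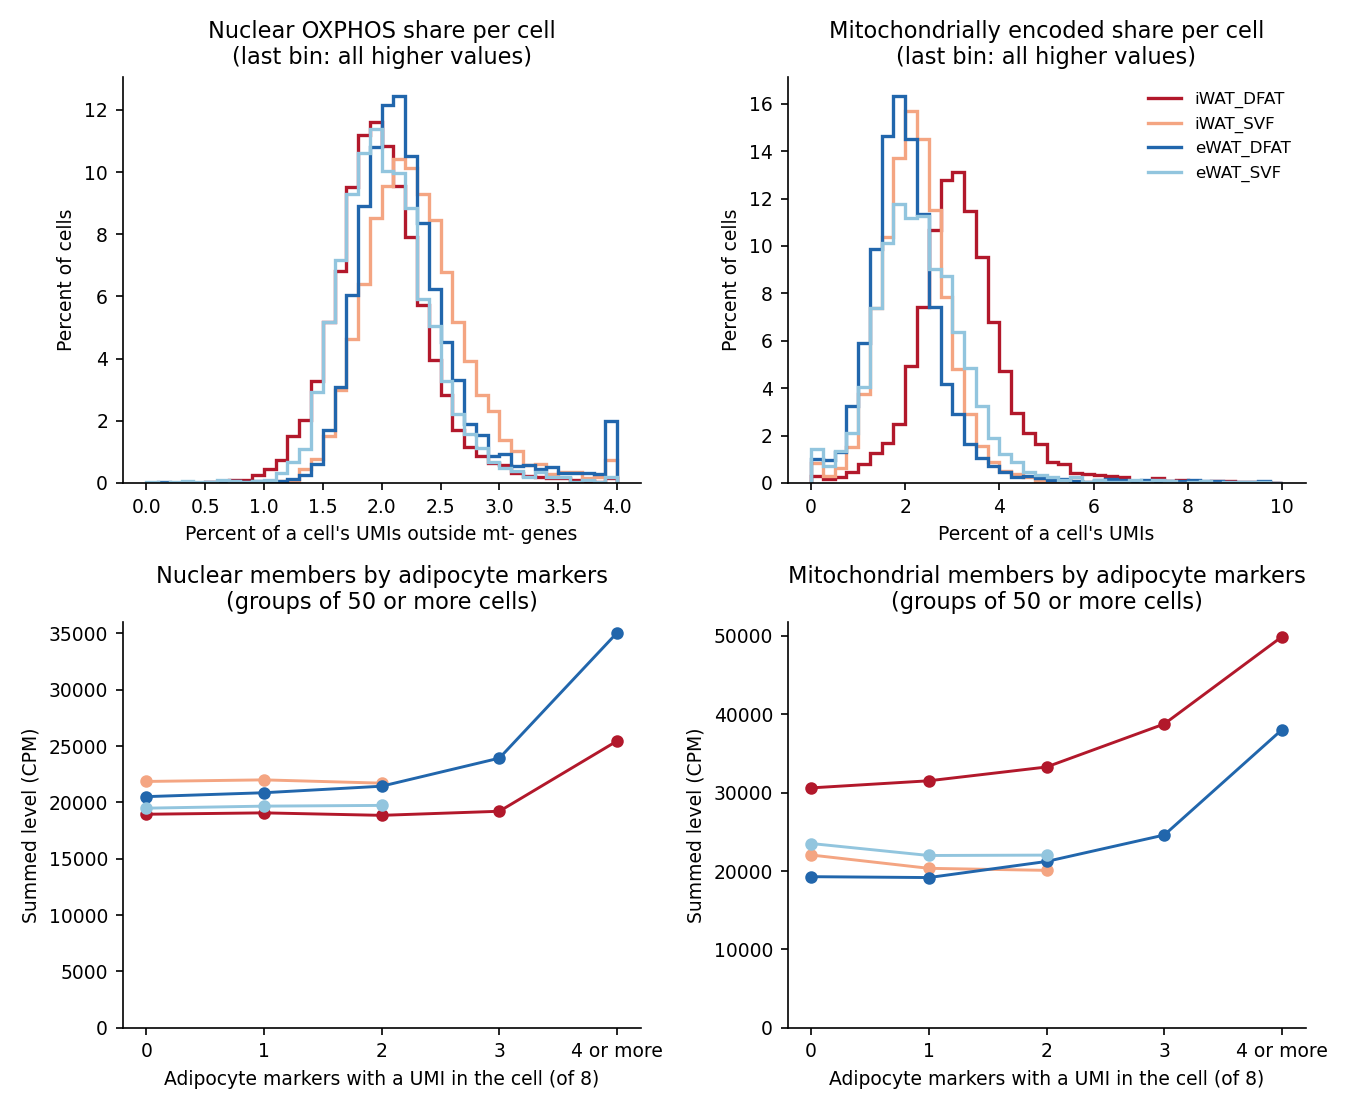
Top, percent of cells by the share of nuclear (left, of UMIs outside mt- genes) and mitochondrially encoded (right, of all UMIs) OXPHOS transcripts in a cell; bottom, summed levels in CPM with exact 95% Poisson intervals by the number of adipocyte markers in the cell, 1 line per library. The iWAT_DFAT curve of mitochondrial share lies to the right of the others, and among the plotted groups of 50 or more cells both sums of each DFAT library are highest with 4 or more markers, at 35054 and 38034 CPM in eWAT_DFAT.

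The wider mitochondrial machinery was described with lists of genes that are not members. Of 21 protein import genes, 20 were higher in DFAT cells in eWAT and 9 by 1.5-fold or more (14.2% of all genes), while in iWAT 7 were higher and 14 lower with 0 past the fold upward (17.2% of all genes) or downward (9.78%). Their sum was highest in eWAT_DFAT, at 5309 CPM against 3625 in iWAT_DFAT, 3965 in iWAT_SVF and 3651 in eWAT_SVF. The matrix chaperonin Hspd1 was at 445 CPM in iWAT_DFAT, 738 in eWAT_DFAT, 440.1 in iWAT_SVF and 374 in eWAT_SVF, its co-chaperonin Hspe1 at 594, 861, 669 and 513, and Timm8a1, which escorts proteins between the membranes, at 74.8, 139, 76.0 and 63.2 CPM. The import receptor Tomm20 was at 322, 622, 423.5 and 399 CPM and the translocase subunit Timm17a at 133, 308, 176 and 203. Tomm7, Timm8b, Timm9 and Tomm70a also passed the fold, with ratios in eWAT of 0.62, 0.76, 0.59 and 0.74. Of these, Tomm7 was highest in iWAT_SVF and lowest in eWAT_SVF, at 166, 174, 189 and 113 CPM.

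Of 78 mitochondrial ribosomal protein genes, 61 were lower in DFAT cells in iWAT and 0 past 1.5-fold (9.78% of all genes), and 63 were higher in eWAT, 6 of them past it (14.2% of all genes). These 6 were Mrps27 (0.93), Mrps10 (0.69), Mrpl33 (0.66), Mrpl18 (0.61), Mrpl9 (0.59) and Mrpl47 (0.59). The medians of the list were -0.15 in iWAT and 0.25 in eWAT, beside 0.081 and 0.069 for all genes. Of 42 assembly factors at 5 CPM or more, 28 were lower in iWAT and 29 higher in eWAT, and 1 in iWAT upward (17.2% of all genes), 1 in eWAT upward (14.2%) and 1 in eWAT downward (12.3%) passed the fold. These were Ttc19, which helps mature complex III, at 68.5, 51.7, 42.4 and 46.6 CPM, and the complex I factors Ndufaf4, at 29.96, 62.5, 41.4 and 33.6 CPM (0.90 in eWAT), and Ndufaf3, at 19.0, 12.4, 19.0 and 23.5 CPM (-0.92).

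Carriers of electrons and adenine nucleotides, of which 12 of 14 were measured, were lower for 8 in iWAT and higher for 7 in eWAT. Of all 10033 genes, 4305 were lower in iWAT and 5636 higher in eWAT. In iWAT 0 carriers passed 1.5-fold upward (17.2% of all genes) and 2 downward (9.78%), and in eWAT 2 upward (14.2%) and 1 downward (12.3%). Cytochrome c, Cycs, was at 235 CPM in iWAT_DFAT, 458 in eWAT_DFAT, 293 in iWAT_SVF and 235 in eWAT_SVF. The 2 main carriers that exchange ADP for ATP went apart, with Slc25a4 at 538, 675, 932 and 1002 CPM, lower in DFAT cells in both depots, and Slc25a5 at 440, 628, 358 and 330 CPM, higher in both. Vdac2, a pore of the outer membrane, was at 218, 495, 348 and 483 CPM, lowest in iWAT_DFAT. Ucp2, a carrier of the inner membrane, was at 7.0999, 12.6, 4.96 and 19.9 CPM, and Ucp1, the uncoupler of brown fat, at 0.0163, 0.0539, 0.00502 and 0.0101 CPM. In the citrate cycle 11 of 16 genes were lower in iWAT and 15 of 16 higher in eWAT, with Idh3a, a subunit of isocitrate dehydrogenase, at 38.2, 85.6, 61.0 and 54.3 CPM and Dlst at 65.0, 55.2, 41.0 and 41.6 CPM. Of the 16, 1 passed 1.5-fold upward and 1 downward in iWAT, and 1 upward and 0 downward in eWAT, beside the same shares of all genes.

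Of 15 measured regulators of mitochondrial biogenesis and of mitochondrial RNA, 12 were higher in DFAT cells in iWAT and 14 in eWAT, with medians of 0.13 and 0.43 beside 0.081 and 0.069 for all genes. In iWAT 1 passed 1.5-fold upward (17.2% of all genes) and 1 downward (9.78%), and in eWAT 2 upward (14.2%), which is near the share of all genes. Another 5 listed regulators were under 5 CPM and not counted, among them the coactivator Ppargc1a, at 1.03, 1.63, 0.226 and 0.263 CPM (2.19 and 2.63), and Ppargc1b (1.09 and 1.31), both higher in DFAT cells. Gabpa, a subunit of the ETS factor that binds CCGGAAG, was at 31.3 CPM in iWAT_DFAT, 26.4 in eWAT_DFAT, 19.9 in iWAT_SVF and 18.7 in eWAT_SVF. Lrpprc and Slirp, whose products keep mitochondrial messenger RNA stable, did not go together in iWAT. Lrpprc was at 28.4, 30.3, 27.1 and 19.8 CPM and Slirp at 83.6, 116, 133 and 76.9 CPM, with ratios in iWAT of 0.06 and -0.67.

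Of 8 measured hypoxia genes, 4 were higher by 1.5-fold or more in iWAT_DFAT than in iWAT_SVF and 1 lower, where 17.2% and 9.78% of all genes were. In eWAT 3 were higher and 3 lower by that much, against 14.2% and 12.3% of all genes. Pdk1, which holds pyruvate back from the citrate cycle, was at 13.6, 4.25, 6.70 and 4.97 CPM, and Bnip3, a mitophagy receptor, at 58.0, 22.7, 33.2 and 23.3 CPM, so that both were highest in iWAT_DFAT as Ndufa4l2 was. Egln3, an oxygen sensor, was higher in DFAT cells in both depots, at 14.1, 16.8, 1.62 and 4.04 CPM, and Vegfa and Slc2a1 had ratios of 0.70 and 0.44 in iWAT and 0.59 and 0.74 in eWAT. Adm was at 153, 56.1, 179 and 315 CPM and Ndrg1 at 9.19, 2.30, 10.5 and 16.4 CPM, lowest in eWAT_DFAT, and Ero1l was lower in DFAT cells in both depots (-0.82 and -0.75). Cell cycle genes were higher in eWAT_DFAT than in eWAT_SVF for 10 of 10 and divided 5 to 5 in iWAT, with Rrm2 (1.32) and Pclaf (0.66) past the fold in eWAT.

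Many nuclear OXPHOS transcripts are short, and the shortest transcripts differed between these libraries as a class. The 14 members under 600 bases had median ratios of DFAT over SVF of -0.19 in iWAT and 0.30 in eWAT, and of 0.42 between the SVF libraries. The 93 other genes of that length had -0.12, 0.26 and 0.38, close to the members. At 600 to 1000 bases the 32 members had -0.19, 0.083 and 0.085 and the 437 other genes -0.16, 0.0046 and -0.0053, and at 1000 to 2000 bases the 24 members had -0.19, -0.02 and 0.04 and the 1943 others -0.10, -0.00064 and -0.012. In these lengths, which hold most members, other genes were nearly level in eWAT and between the SVF libraries. The 9 members of 2000 bases or more had -0.088 in iWAT and 0.21 in eWAT, whereas the 7464 other long genes had 0.15 and 0.090, so that in iWAT long members lay below other long genes while short members lay near other short ones. By the span of the gene with its introns, the median of all genes in iWAT_DFAT over iWAT_SVF went from -0.073 under 10000 bases, which holds 56 of the 79 members, to 0.30 at 100000 or more, and in eWAT from -0.01 to 0.15. Between depots this median rose with span too, from -0.045 to 0.28 in iWAT_DFAT over eWAT_DFAT and from -0.0065 to 0.13 in iWAT_SVF over eWAT_SVF. Ribosomal protein genes, also short, summed to 179216, 190179, 198203 and 189474 CPM, lowest in iWAT_DFAT and highest in iWAT_SVF as the nuclear OXPHOS sum was. The part of transcript length in the OXPHOS differences was not tested.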

How the data were processed

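Cells of 4 cultures were sorted for viability after trypsin and made into 10x Genomics 3′ v3.1 libraries. The values are UMI counts of each gene in each barcode, deposited as the authors obtained them from Cell Ranger on mm10. The submitters' notes name version 7.0.0, with introns counted according to the study's methods, whereas the file headers give 7.1.0 for 3 matrices and 4 for iWAT_SVF. Counts of introns can favour long genes. The files hold all barcodes, unfiltered, with 211396227 to 242282812 UMIs per library. The study's correction of free RNA, integration and doublet removal are not in these matrices and were not repeated.

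The members and gene lists were chosen with earlier results of these data known. Barcodes with 5000 to 75000 UMIs, 200 to 7500 genes and under 10% mitochondrial UMIs were kept, and UMIs of all of them were summed per library and divided by the library's total in cells. Members in log2 ratios needed a mean of 5 CPM over the 4 libraries, and genes beyond 1.5-fold were counted. Doublets were kept. Scrublet's own threshold marked at most 5 cells per library and so did not work here, and removing its highest scores was an alternative. Interval and ratio code was tested on simulated counts. Named members are the 5 highest and 5 lowest ratios of each comparison, all mitochondrially encoded members, tissue isoforms with their partners, complex II and the catalytic core, of which 1 is not reported here. Genes of other pathway lists are named where beyond 1.5-fold between DFAT and SVF cells. Ndufa6, Uqcrh, Uqcr10, Uqcr11, Uqcrq and Atp5k fall outside this rule and were added after their values were seen, as was the grouping of cells by number of adipocyte markers. Cells with 2 or more UMI-positive genes of a marker list were taken as carrying that list, namely stromal, adipocyte, endothelial, immune, mesothelial, neural and pericyte markers. Summed levels of the other lists ran from 5.95 to 120 CPM (mesothelial), 19.7 to 58.6 (endothelial), 17.7 to 59.6 (immune), 1.64 to 31.2 (neural), 8.86 to 20.9 (pericyte) and 0.492 to 2.68 (brown or beige fat). Promoters came from RefSeq on GRCm38.p6, gene positions from GENCODE M21. Computation used Scanpy 1.11.5, pandas 2.3.3, SciPy 1.17.1 and NumPy 2.4.6 under Python 3.11.15, with plots in Matplotlib 3.10.9.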

Additional observations from a re-analysis of the deposited data

Results flagged for a closer look

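The results given here were singled out because the ratio of DFAT over SVF cells had opposite signs in the 2 depots, with the counting intervals of both apart from 0. For single genes at 5 CPM or more the 2 ratios also had to lie at least 2-fold apart. With 1 library per condition these differences were not tested, and the spread between cultures of the same kind is unknown. Each value is the log2 ratio in iWAT minus that in eWAT. It was -0.3305 for the summed nuclear OXPHOS UMIs and 0.7122 for the summed mitochondrially encoded ones. The latter no longer had opposite signs without the cells that held 2 or more cell cycle genes, where its ratios were 0.56 in iWAT and 0.046 in eWAT.

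Among the members, Atp5md, a small subunit of the ATP synthase, had a difference of -1.175 and mt-Co3, a subunit of complex IV, 1.016. Both sides of each were modest, at -0.64 and 0.54 for Atp5md and 0.51 and -0.51 for mt-Co3. Among genes of the pathway outside the members, the differences were -1.277 for cytochrome c (Cycs), -1.364 for the complex I assembly factor Ndufaf4, -1.098 for the copper chaperone Cox17, -1.267 for the mitochondrial RNA-binding Slirp, -1.335 for the citrate cycle enzyme Idh3a, -1.008 for the import subunit Timm17a and -1.035 for the import receptor Tomm20. They were positive, with DFAT over SVF higher in iWAT, for the kinase Pdk1 at 1.248 and the carrier Ucp2 at 1.173.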

How the results depend on the processing

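In the nuclear sum no alternative changed a sign, and in the mitochondrial sum 1 did. Values follow as log2 ratios of iWAT_DFAT over iWAT_SVF (a), eWAT_DFAT over eWAT_SVF (b), iWAT_DFAT over eWAT_DFAT (c) and iWAT_SVF over eWAT_SVF (d), in this order, where they moved beyond counting error, and no cause was tested. For the nuclear sum they were -0.2048 (a) and -0.1751 (c) with a limit of 500 UMIs, and 0.1331 (b) and 0.1602 (d) with a mitochondrial limit of 20%. Subtracting free RNA gave -0.1933 (a) and 0.1378 (b), and removing the highest Scrublet scores -0.1979 (a) and 0.1338 (b). The mean over cells gave -0.2116, 0.1415, -0.1867 and 0.1665. Without cells that held 2 or more cell cycle genes the values were -0.3304, 0.2521, -0.3632 and 0.2193, and without cells with markers of other types -0.204, 0.09716, -0.1321 and 0.1691. UMIs outside mitochondrial genes as denominator gave -0.1855, 0.1265 and -0.1557 (a to c), and centring on the median gene -0.2819, 0.06072, -0.2583 and 0.1028. Leaving out cells with 2 or more pericyte markers, chosen after seeing the data, gave -0.2056 (a) and 0.1609 (d).

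For the mitochondrial sum the ratio b reversed to 0.04583 without cells that held 2 or more cell cycle genes, where the others were 0.5625, 0.4968 and -0.01982. The values were -0.06118 (d) with 500 UMIs, 0.5814, -0.1462, 0.6449 and -0.08267 with the 20% limit, 0.5454, -0.1825, 0.6436 and -0.08422 after subtracting free RNA, and 0.5325, -0.1782, 0.6367 and -0.07391 as a mean over cells. Removing the highest Scrublet scores gave 0.5544 (a), 0.6352 (c) and -0.0537 (d), leaving out cells with markers of other types 0.5464, -0.2234, 0.6999 and -0.07001, UMIs outside mitochondrial genes 0.5934, -0.1372 and 0.6658 (a to c), centring 0.497, -0.203, 0.5631 and -0.1184, and leaving out cells with pericyte markers -0.06697 (d).

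Counts of nuclear members past 1.5-fold, higher and lower in the same 4 comparisons, were 1 and 6, 2 and 1, 1 and 2, and 8 and 0. They became 2 and 21, 16 and 1, 1 and 15, and 24 and 0 at a limit of 0.322 in log2, where 30.4% and 18.7%, 28.9% and 22.02%, 30.04% and 18.4%, and 17.4% and 13.2% of all genes passed. At 2-fold they were 1 and 1, 0 and 1, 1 and 0, and 0 and 0, beside 8.90% and 4.83%, 5.72% and 5.94%, 7.43% and 3.59%, and 2.74% and 3.40% of all genes. With no filter on level they became 3 and 9, 3 and 2, 3 and 4, and 10 and 0 of 84 members. The shares of all genes there were 24.5% and 18.5%, 29.2% and 15.9%, 20.7% and 21.0%, and 20.2% and 14.5%. At a minimum of 20 CPM they became 0 and 5, 2 and 0, 0 and 2, and 7 and 0 of 77 members. The shares of all genes there were 16.1% and 9.32%, 13.3% and 11.4%, 14.9% and 8.62%, and 5.26% and 5.61%. Centring gave 1 and 9, 0 and 1, 1 and 3, and 4 and 0, beside 14.5% and 11.5%, 11.6% and 14.3%, 13.6% and 11.1%, and 5.78% and 7.56% of all genes. No paired analysis was possible because each condition is 1 library with no replicate numbers. With no replicates, leaving one out was not possible either. Counts were too few to compare for isoforms with under 10 UMIs in a library, such as Cox7b2 and Cox8c. The nuclear share of a cell was lower in deeper cells, and median depth ran from 22111 UMIs in iWAT_DFAT to 27617 in eWAT_SVF. The part of depth in the differences between libraries was not tested.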
